A study of Mus musculus with 10 samples.

Results

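Pdgfra, Cspg4, Vcan, Gpr17, Enpp6, Neu4, Olig1, Olig2, Sox10 and Myrf mark or direct the steps by which oligodendrocyte precursor cells become myelinating oligodendrocytes. They were taken by gene symbol from the deposited table of normalised counts, in which all 10 were found among 31510 genes. The values come from bulk RNA sequencing of the hippocampus of 10 male APP/PS1 mice (34832-JAX), which carry transgenes that cause amyloid deposits in the brain. At 8 months of age, 5 mice received AAV8-irisin-FLAG and 5 received AAV8-GFP through the tail vein, and the hippocampus was dissected 2 months later. AAV8 is a viral vector that favours the liver, and the design text states that liver production was meant to raise irisin in the blood moderately. The AAV8-GFP mice carried the same transgenes and the same kind of vector, so both groups are transgenic and injected. Mice without the transgenes or without an injection were not analysed here. One library was made per mouse. All 10 members and all 19 genes of a list for mature oligodendrocytes passed the filter on low values, so the lineage was detected in this tissue. The labels do not name the promoters that drive the transgenes. The comparison asks how peripherally delivered irisin relates to expression of these genes in the hippocampus.

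Oligodendrocyte precursor cells persist throughout the adult brain, where they divide and renew themselves under the influence of platelet-derived growth factor. Some leave the cell cycle, pass through a short-lived committed stage and become oligodendrocytes that wrap axons in myelin, the lipid-rich sheath that speeds nerve conduction. Transcription factors of the OLIG and SOX families are held through the whole lineage, and MYRF is switched on as cells stop dividing and begin to transcribe myelin genes. In the hippocampus new oligodendrocytes continue to form in adulthood.

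The 10 genes lie on 9 chromosomes (mm10, GENCODE M21). Pdgfra spans chr5:75152292-75198215 on the plus strand, Cspg4 chr9:56865033-56899870 on the plus strand and Vcan chr13:89655312-89742509 on the minus strand. Enpp6 spans chr8:46986887-47096762 and Neu4 chr1:94020451-94028334, both on the plus strand, and Gpr17 is read from the minus strand. Olig2, at chr16:91225457-91228677, and Olig1, at chr16:91269772-91271933, are neighbours on the plus strand, 41.1 kb apart. Sox10 spans chr15:79154908-79165240 and Myrf chr19:10208272-10240748, both on the minus strand. The values are per gene, as the authors counted them. Exons of Gpr17 overlap 188 exonic bases of Lims2 on the opposite strand, those of Olig1 overlap 157 bases of Gm15966 and those of Pdgfra overlap 456 bases of Gm42802 and 166 of Gm42803, also on the opposite strand. Pdgfra also shares 30 bases with the microRNA gene Mir7025 on its own strand. Whether strand was used is not given in the sources used here, and part of these 3 genes' reads may belong to the overlapping gene.

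The start regions of 6 of the 10 genes were matched in RefSeq (GRCm38.p6), namely those of Cspg4, Enpp6, Neu4, Olig2, Pdgfra and Vcan. Pdgfra and Vcan are shown because single mice stood far from the rest at these genes, and Enpp6 and Neu4 because they mark the committed stage. Each is printed 5′ to 3′ on the gene's own strand and ends before the first annotated exon. Capitals mark the E-box CANNTG, the letters bound by basic helix-loop-helix factors such as OLIG2, and the SOX core ACAAT or its reverse complement ATTGT, the letters bound by SOX factors such as SOX10.
Pdgfra: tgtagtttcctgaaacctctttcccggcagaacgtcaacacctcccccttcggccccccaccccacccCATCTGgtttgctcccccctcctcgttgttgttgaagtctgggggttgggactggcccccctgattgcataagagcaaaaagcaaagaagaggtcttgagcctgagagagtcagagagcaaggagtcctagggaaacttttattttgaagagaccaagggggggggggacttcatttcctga
Vcan: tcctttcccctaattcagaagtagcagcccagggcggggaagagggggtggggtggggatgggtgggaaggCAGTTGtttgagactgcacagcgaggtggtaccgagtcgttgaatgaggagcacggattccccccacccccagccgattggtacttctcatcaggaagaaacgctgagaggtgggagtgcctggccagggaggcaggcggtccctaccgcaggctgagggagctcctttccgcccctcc
Enpp6: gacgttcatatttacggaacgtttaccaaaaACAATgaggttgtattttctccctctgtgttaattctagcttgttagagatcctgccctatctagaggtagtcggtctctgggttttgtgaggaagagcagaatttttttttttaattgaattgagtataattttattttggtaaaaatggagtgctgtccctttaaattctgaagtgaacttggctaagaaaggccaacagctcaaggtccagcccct
Neu4: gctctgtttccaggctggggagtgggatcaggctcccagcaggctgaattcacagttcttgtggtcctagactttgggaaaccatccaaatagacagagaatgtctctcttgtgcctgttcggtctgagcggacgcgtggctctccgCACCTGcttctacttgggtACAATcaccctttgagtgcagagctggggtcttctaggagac
These stretches are chr5:75152001-75152250 on the plus strand for Pdgfra, chr13:89742513-89742762 on the minus strand for Vcan, chr8:46986637-46986886 on the plus strand for Enpp6 and chr1:94020243-94020450 on the plus strand for Neu4. Pdgfra and Vcan each hold 1 E-box and no SOX core, Enpp6 holds 1 SOX core and no E-box, and Neu4 holds 1 of each. In the 250 bases before the start, 3 of the 6 genes held an E-box and 4 of 6 a SOX core, searched on both strands. Among all 32851 RefSeq start regions of that length, 66.2% held an E-box and 27.7% a SOX core. A match of these letters is a description and not a binding site. GC content was 38.4% in the stretch of Enpp6, 54.3% in that of Neu4, 54.4% in that of Pdgfra and 62.4% in that of Vcan, against a median of 52.4% over all start regions.

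Total normalised counts were 35284300 to 36623000 per library, and depth was estimated at 30700000 to 41500000 reads. That estimate takes 1 value per read in a library, but just 56.8% to 75.6% of each library's low values were whole multiples of it. A pair of libraries departed from the rest in ways that bear on these genes. In the library of AAV8-GFP mouse 1, genes with long transcripts were low and genes with short transcripts were high. The median deviation from the other 9 mice, on the log2 scale, was −0.10 above the upper quartile of transcript length (4697 bases) and 0.094 below the lower quartile (2057 bases). Their difference was −0.19 in that library, against −0.068 to 0.062 in the other 9. In AAV8-irisin mouse 4, the summed level of 7 choroid plexus markers was 2825 normalised counts, against 835 to 1222 in the other 9 mice. Their leading marker Ttr, the transthyretin gene, reached 1528 there. That mouse also had the highest summed level of 10 fibroblast markers, 4066 normalised counts against 2653 to 3820 in the others. Values of the lineage genes that rest on either mouse are given with and without it.

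No gene of the lineage passed the test between the groups. With limma on log2(value + 1) and Benjamini-Hochberg adjustment over all 17556 genes tested, 0 of 10 members had an adjusted p under 0.05, where the background called 0.0% of genes in each direction. At an unadjusted p under 0.05, 0 of 10 members were counted, against 4.49% of all genes tested, 2.28% higher and 2.21% lower in AAV8-irisin. Vcan, Enpp6, Myrf and Pdgfra had a higher mean in AAV8-irisin, and Gpr17, Cspg4, Olig1, Neu4, Olig2 and Sox10 a lower one. That is 4 of 10 higher and 6 of 10 lower, where 50.5% of all genes were higher and 49.5% lower. The median log2 difference over the members was −0.011, and over all genes it was 0.00099. The values of the groups overlapped for all 10 members, and 0.803% of all genes had groups that did not overlap, 0.382% higher and 0.422% lower in AAV8-irisin. In bulk tissue, fewer cells of a type and less RNA per cell cannot be told apart, so these differences describe tissue levels.

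**Figure D1:**
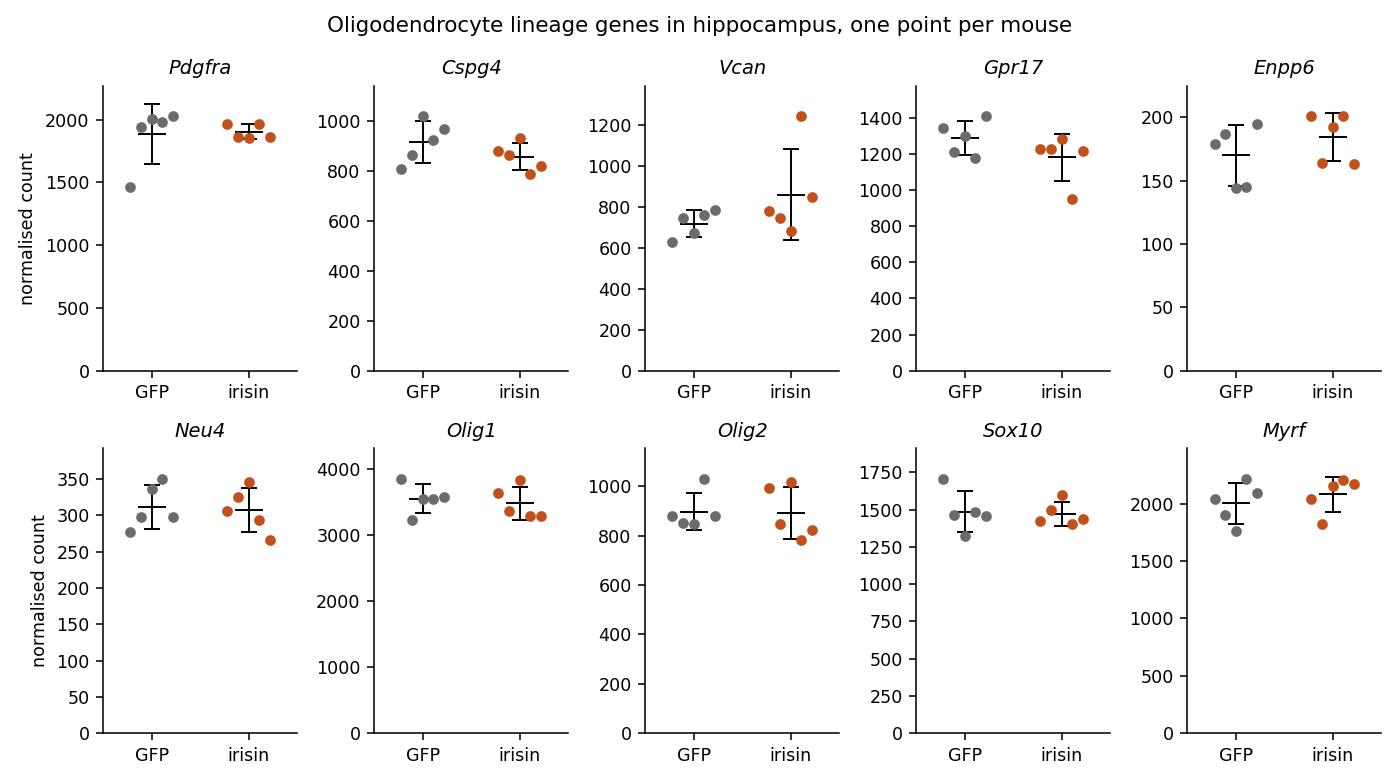
Normalised counts (vertical axes, from 0) of the 10 lineage genes in 5 AAV8-GFP mice (grey) and 5 AAV8-irisin mice (orange), 1 point per mouse in order of mouse number, with mean and SD as black bars. The groups overlap in every panel, and single mice stand off for Pdgfra (1462 in AAV8-GFP mouse 1), Vcan (1243 in AAV8-irisin mouse 4) and Gpr17 (950.4 in AAV8-irisin mouse 4).

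Levels per kilobase of merged exon, averaged over the 10 mice, placed the genes in an order led by the transcription factors. Olig1 was highest with 1624 ± 103 normalised counts per kilobase (SD, n = 10). Sox10 followed with 485 ± 35.0 and Olig2 with 354 ± 34.0, and the ranges of these 3 genes over the mice did not overlap one another. Myrf (238 ± 18.9), Gpr17 (237 ± 23.4) and Pdgfra (189 ± 16.4) came next on the same scale. Myrf and Gpr17 did not differ beyond their spread. The range of Gpr17 overlapped that of Pdgfra, whereas the lowest mouse of Myrf (205) lay just above the highest of Pdgfra (202). Cspg4 (74.4 ± 6.14), Neu4 (66.7 ± 6.22) and Vcan (54.6 ± 11.9) formed a lower set in which neighbours overlapped. Enpp6 was lowest, at 27.6 ± 3.38, and its highest mouse (31.3) lay below the lowest of Vcan (43.5). Per kilobase of the longest annotated transcript instead, Myrf (360, range 310 to 390) stood just above Olig2 (354, range 309 to 407). Pdgfra (277, range 214 to 296.5) then stood above Gpr17 (237, range 183 to 271), and the ranges overlapped in both pairs. On this scale Cspg4 (109, range 97.3 to 126) did not overlap Neu4 (68.6, range 59.0 to 77.6).

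Precursors are recognised by surface and matrix proteins, and Pdgfra, Cspg4 and Vcan are the 3 members of this kind. Pdgfra encodes the receptor through which PDGF-AA drives precursors to divide. In AAV8-GFP mice 1 to 5 it was 1462, 1941, 2007, 1983 and 2026 normalised counts, and in AAV8-irisin mice 1 to 5 it was 1969, 1862, 1851, 1969 and 1864. AAV8-GFP mouse 1 was far below the other 9 mice, all of which lay within a narrow band. Group means were 1884 ± 238 and 1903 ± 60.4 (SD, n = 5 each), a log2 difference of 0.024 (standard error 0.076, 95% interval −0.14 to 0.19, limma, adjusted p = 0.972). Without AAV8-GFP mouse 1 the difference was −0.064, so its sign rests on that library. All 4 remaining AAV8-GFP mice were above the AAV8-irisin mean.

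Cspg4 encodes the NG2 proteoglycan, carried by precursors and also by pericytes, the contractile cells around capillaries. It was 810, 865, 1020, 924 and 968 normalised counts in the AAV8-GFP mice and 881, 864, 934, 790 and 823 in the AAV8-irisin mice. The AAV8-irisin values spread over the lower and middle part of the AAV8-GFP range, and 1 of 5 lay below it. The means of 917 ± 82.9 and 858 ± 55.2 gave a log2 difference of −0.093 (standard error 0.067, interval −0.24 to 0.050, limma, adjusted p = 0.942). With AAV8-GFP mouse 3 left out, its highest mouse, the difference was −0.054. Summed over 10 mural cell markers, the level was 6034 to 7551 across AAV8-GFP mice and 6071 to 6792 across AAV8-irisin mice. The sum was highest in AAV8-GFP mouse 3, as Cspg4 was. In AAV8-irisin mice 3 and 4 the sum was 6071 and 6477, where Cspg4 was 934 and 790. The part of mural cells in the Cspg4 values was not tested.

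Vcan, which encodes the matrix proteoglycan versican, had the largest difference of the 10. It was 629, 748, 671, 761 and 786 normalised counts in the AAV8-GFP mice and 779, 747, 683, 1243 and 847 in the AAV8-irisin mice. AAV8-irisin mouse 4 stood apart at 1243, and the remaining AAV8-irisin mice were within the AAV8-GFP range except mouse 5. Means of 719 ± 66.3 and 860 ± 222 gave a log2 difference of 0.23 (standard error 0.13, interval −0.046 to 0.50, limma, adjusted p = 0.942; two-sided exact permutation p = 0.183). Without AAV8-irisin mouse 4 the log2 difference was 0.088, and without that mouse and AAV8-GFP mouse 1 it was 0.041. Fibroblasts and other cells around vessels also make versican. The fibroblast markers were highest in AAV8-irisin mouse 4, with a sum of 4066 normalised counts. They were next highest in AAV8-irisin mouse 1 (3820) and AAV8-GFP mouse 2 (3684), where Vcan was 779 and 748. All 10 fibroblast markers were detected, and their part in the Vcan values was not tested.

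The committed stage is represented by Gpr17, Enpp6 and Neu4. Gpr17 encodes a G protein-coupled receptor that is present for a short time in committed precursors and restrains their maturation. Its values were 1342, 1209, 1300, 1175 and 1407 normalised counts in the AAV8-GFP mice and 1225, 1226, 1280, 950 and 1217 in the AAV8-irisin mice. AAV8-irisin mouse 4 was the lowest of all 10, and the other 4 AAV8-irisin mice lay inside the AAV8-GFP range. The means, 1287 ± 95.2 and 1180 ± 130, differed by −0.13 on the log2 scale (standard error 0.077, interval −0.30 to 0.035, limma, adjusted p = 0.942; two-sided exact permutation p = 0.190). Without AAV8-irisin mouse 4 the difference was −0.054.

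Enpp6 encodes a choline phosphodiesterase of oligodendrocytes that have just begun to form. It was 179, 187, 144, 145 and 195 normalised counts in the AAV8-GFP mice and 201, 164, 192, 201 and 163 in the AAV8-irisin mice. AAV8-GFP mice 3 and 4 were the lowest of the 10, and 2 of 5 AAV8-irisin mice exceeded every AAV8-GFP mouse. The means of 170 ± 24.0 and 184 ± 18.96 gave a log2 difference of 0.12 (standard error 0.11, interval −0.12 to 0.36, limma, adjusted p = 0.942). Leaving out AAV8-GFP mouse 3 or mouse 4 brought it to 0.064 or 0.066. Neu4 encodes a sialidase, an enzyme that removes sialic acid from glycoproteins and glycolipids. It was 277, 297, 337, 350 and 297 normalised counts in the AAV8-GFP mice and 305, 325, 346, 293 and 266 in the AAV8-irisin mice. The groups covered nearly the same range, with means of 312 ± 30.6 and 307 ± 30.4 and a log2 difference of −0.021 (standard error 0.088, interval −0.21 to 0.17, limma, adjusted p = 0.981).

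The 4 transcription factors differed between the groups by 0.057 or less in size on the log2 scale. Olig1 and Olig2 encode basic helix-loop-helix factors, of which OLIG2 is needed to specify the lineage and OLIG1 acts in its maturation. Olig1 was 3845, 3220, 3545, 3540 and 3576 normalised counts in the AAV8-GFP mice and 3639, 3354, 3828, 3282 and 3280 in the AAV8-irisin mice. All AAV8-irisin values lay within the AAV8-GFP range, with means of 3545 ± 222 and 3476 ± 246. The log2 difference was −0.029 (standard error 0.054), and its 95% interval corresponds to 0.905 to 1.06 times the AAV8-GFP level (limma, adjusted p = 0.964). Olig2 was 877, 852, 847, 1029 and 877 normalised counts in the AAV8-GFP mice and 992, 847, 1015, 782 and 824 in the AAV8-irisin mice. In AAV8-GFP, mouse 4 stood above 4 mice that were nearly equal, whereas the AAV8-irisin mice split into 2 above those 4 and 3 below the lowest of them, mouse 2 only just. Means of 897 ± 75.3 and 892 ± 105 gave a log2 difference of −0.011 (standard error 0.079, interval −0.18 to 0.16, limma, adjusted p = 0.988).

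Sox10 encodes an HMG-box factor held from precursor to mature oligodendrocyte, and found in Schwann cells of peripheral nerve as well. It was 1705, 1463, 1323, 1487 and 1454 normalised counts in the AAV8-GFP mice and 1420, 1498, 1600, 1402 and 1438 in the AAV8-irisin mice. The highest and the lowest of the 10 mice were both AAV8-GFP, mice 1 and 3. Means of 1486 ± 138 and 1472 ± 80.4 gave a log2 difference of −0.011 (standard error 0.062, interval −0.14 to 0.12, limma, adjusted p = 0.985). The sum of 4 Schwann cell markers was 117 to 196 normalised counts across AAV8-GFP mice and 110 to 158 across AAV8-irisin mice.

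Myrf encodes a membrane-bound factor that cuts itself free and activates myelin genes. It was 2037, 1903, 1758, 2215 and 2095 normalised counts in the AAV8-GFP mice and 2044, 1826, 2151, 2206 and 2174 in the AAV8-irisin mice. Every AAV8-irisin value fell within the AAV8-GFP range, and 3 of 5 were above each AAV8-GFP mouse but mouse 4. The means were 2002 ± 176 and 2080 ± 155, a log2 difference of 0.057 (standard error 0.065, interval −0.083 to 0.20, limma, adjusted p = 0.949).

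**Figure D2:**
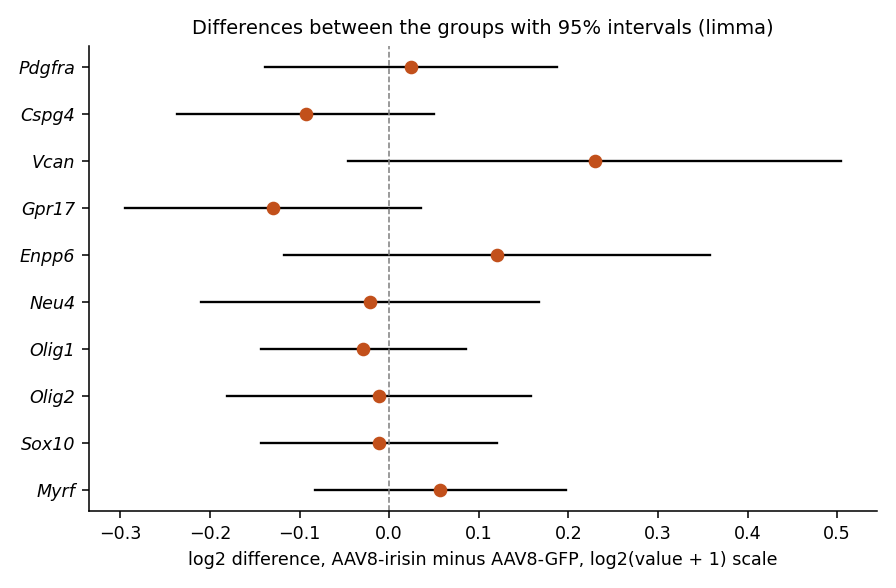
Log2 difference between the groups (horizontal axis, log2(value + 1) scale, positive where AAV8-irisin was higher) for the 10 genes (vertical axis), with dots for the estimate and lines for limma's 95% interval. Each interval includes 0, and that of Vcan, −0.046 to 0.50, is the widest.

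These intervals limit how large a difference could be. Expressed as a ratio of AAV8-irisin to AAV8-GFP, the upper bound was 1.42 for Vcan and 1.28 for Enpp6, the 2 widest intervals, and 1.06 for Olig1, the narrowest. The lowest lower bound was 0.815, for Gpr17. Over the 10 mice the coefficient of variation had a median of 9.0% across the members, from 6.37% for Olig1 to 21.7% for Vcan, beside a median of 8.48% over all genes tested.

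**Figure D3:**
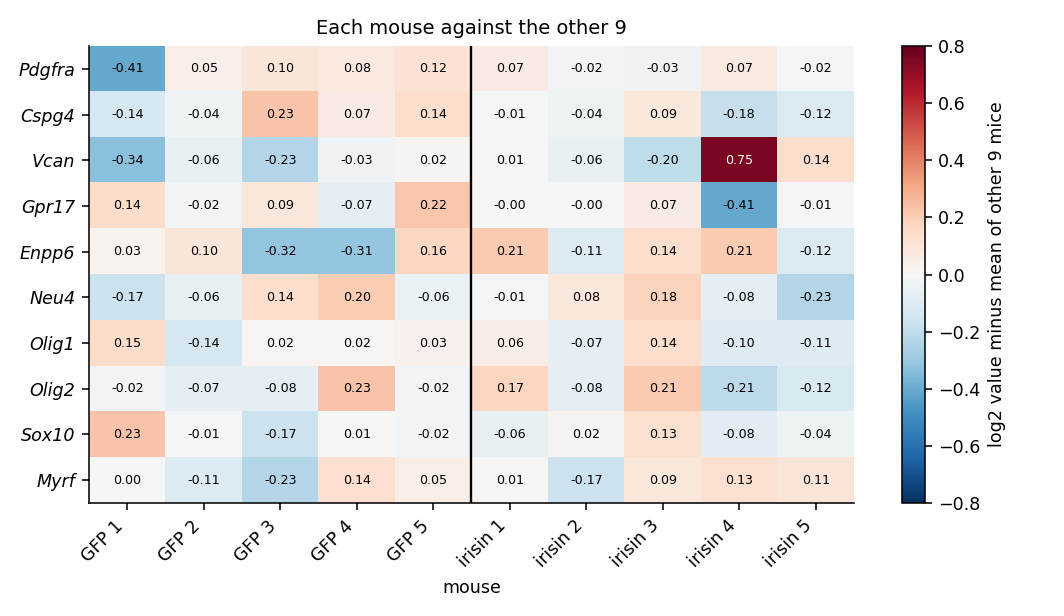
Deviation of each mouse (horizontal axis, AAV8-GFP left and AAV8-irisin right of the line) from the mean of the other 9 mice for each gene (vertical axis), as a colour and a number on the log2 scale. AAV8-GFP mouse 1 was low for Pdgfra (−0.41) and Vcan (−0.34), and AAV8-irisin mouse 4 was high for Vcan (0.75) and low for Gpr17 (−0.41).

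Mouse by mouse, the departures did not run through the whole lineage. AAV8-GFP mouse 1 was below the mean of the other 9 by −0.41 for Pdgfra, −0.34 for Vcan, −0.17 for Neu4 and −0.14 for Cspg4 on the log2 scale. It was above it by 0.23 for Sox10, 0.15 for Olig1 and 0.14 for Gpr17, and within 0.030 for Olig2, Enpp6 and Myrf. The longest annotated transcripts of Vcan (12427 bases), Cspg4 (8121) and Pdgfra (6834) are the longest of the 10, and those of Olig1 (2162), Olig2 (2530) and Sox10 (2780) the shortest. In the library of AAV8-GFP mouse 1, the median deviation over all genes went from 0.11 in the decile of shortest transcripts to −0.14 in the decile of longest ones. Cspg4 lay on that line, Pdgfra, Neu4 and Olig2 lay below it, and Sox10, Olig1, Gpr17, Enpp6 and Myrf lay above it. The line ends at the median length of the last decile, 8302 bases. Vcan is longer than that and lay below the last decile's median deviation. The part of transcript length in these values was not tested.

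**Figure D4:**
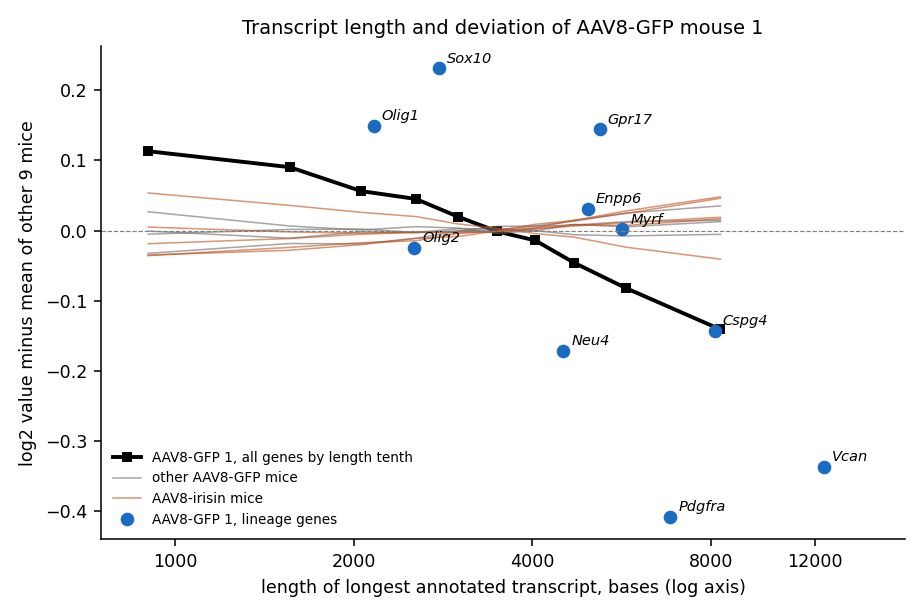
Longest annotated transcript (horizontal axis, bases, log scale) against the log2 deviation of a mouse from the mean of the other 9 (vertical axis). Lines join medians over deciles of all genes by length, black for AAV8-GFP mouse 1 and thin for the other mice, and blue dots are the 10 lineage genes in AAV8-GFP mouse 1, where Pdgfra (−0.41) and Vcan (−0.34) are lowest.

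AAV8-irisin mouse 4 was 0.75 above the other 9 for Vcan on the log2 scale, 0.21 above for Enpp6 and 0.13 above for Myrf. It was below them by −0.41 for Gpr17, −0.21 for Olig2, −0.18 for Cspg4 and −0.10 for Olig1. The remaining 3 genes were within 0.082. That mouse carried the high choroid plexus and fibroblast marker levels given above, whose part in these values was not tested. AAV8-GFP mouse 3 was low for Enpp6 (−0.32), Myrf (−0.23) and Vcan (−0.23) and high for Cspg4 (0.23). It also had the lowest summed level of 19 mature oligodendrocyte genes, 120272 normalised counts. Its microglia, astrocyte, neuron and endothelial marker sums were the highest of the 10 mice, as was its total (36623000 normalised counts). By mean log2 level instead of sum, its neuron markers deviated by −0.017 from the mean of all 10 mice.

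With AAV8-GFP mouse 1 and AAV8-irisin mouse 4 both left out, a choice made after the data were seen, no member passed the test. The log2 difference was then −0.077 for Pdgfra, −0.11 for Cspg4, 0.041 for Vcan, −0.038 for Gpr17, 0.11 for Enpp6 and −0.047 for Neu4. It was 0.021 for Olig1, 0.027 for Olig2, 0.057 for Sox10 and 0.042 for Myrf. The signs of Pdgfra, Olig1, Olig2 and Sox10 turned, and the other 6 kept theirs.

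Across the 10 mice, the members were set against the mean log2 level of 19 mature oligodendrocyte genes, a list that includes Mbp, the gene of myelin basic protein. Mbp averaged 60663 ± 7284 normalised counts over AAV8-GFP mice and 63894 ± 4182 over AAV8-irisin mice. In all, 10 relations were computed, 1 per member, with permutation p-values adjusted over the 10. Myrf had the highest Pearson's r, 0.821 (permutation p = 0.00518, adjusted p = 0.0518). Its Spearman's rho was 0.60 (permutation p = 0.0726, adjusted p = 0.199), equal to that of Olig2 and below that of Olig1 (0.636). Myrf therefore missed the threshold of 0.05 after adjustment. Without the 2 mice farthest from the median mature level, AAV8-GFP mice 2 and 3, r for Myrf was 0.586. On deviations from the group means r for Myrf was 0.813 (permutation, adjusted p = 0.0448). That permutation made no allowance for the group means removed, so its p tends to be too small. Whether Myrf passes the threshold on deviations is therefore not settled.

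For the 3 other transcription factors the correlations were positive and did not pass. Sox10 had r = 0.624 (permutation p = 0.0514, adjusted p = 0.257) and rho = 0.588 (permutation p = 0.0796, adjusted p = 0.199). Olig1 had r = 0.564 (permutation p = 0.0922, adjusted p = 0.307) and rho = 0.636 (permutation p = 0.0544, adjusted p = 0.199). Olig2 had r = 0.509 (permutation p = 0.131, adjusted p = 0.329) and rho = 0.60 (permutation p = 0.0732, adjusted p = 0.199). Without the same 2 mice r was 0.477 for Sox10, 0.753 for Olig1 and 0.558 for Olig2.

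No correlation passed for the precursor and committed-stage genes either, and 4 of these 6 had a negative r. Enpp6 had r = 0.398 (permutation p = 0.253) and rho = 0.321 (permutation p = 0.370), and Vcan r = 0.106 (permutation p = 0.784) and rho = −0.055 (permutation p = 0.891). Neu4 had r = −0.036 (permutation p = 0.922) and rho = 0.115 (permutation p = 0.761). Gpr17 had r = −0.042 (permutation p = 0.911) and rho = 0.164 (permutation p = 0.657). Cspg4 had r = −0.272 (permutation p = 0.443) and rho = −0.067 (permutation p = 0.864), and Pdgfra r = −0.342 (permutation p = 0.335) and rho = −0.285 (permutation p = 0.427). Adjusted p-values of these 6 genes were between 0.506 and 0.922 for r and between 0.711 and 0.891 for rho. Without AAV8-GFP mice 2 and 3, r was 0.215 for Enpp6, −0.244 for Vcan, 0.255 for Neu4, 0.129 for Gpr17, 0.256 for Cspg4 and −0.236 for Pdgfra. Whether the correlation of Myrf differs from those of the precursor genes was not tested.

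**Figure D5:**
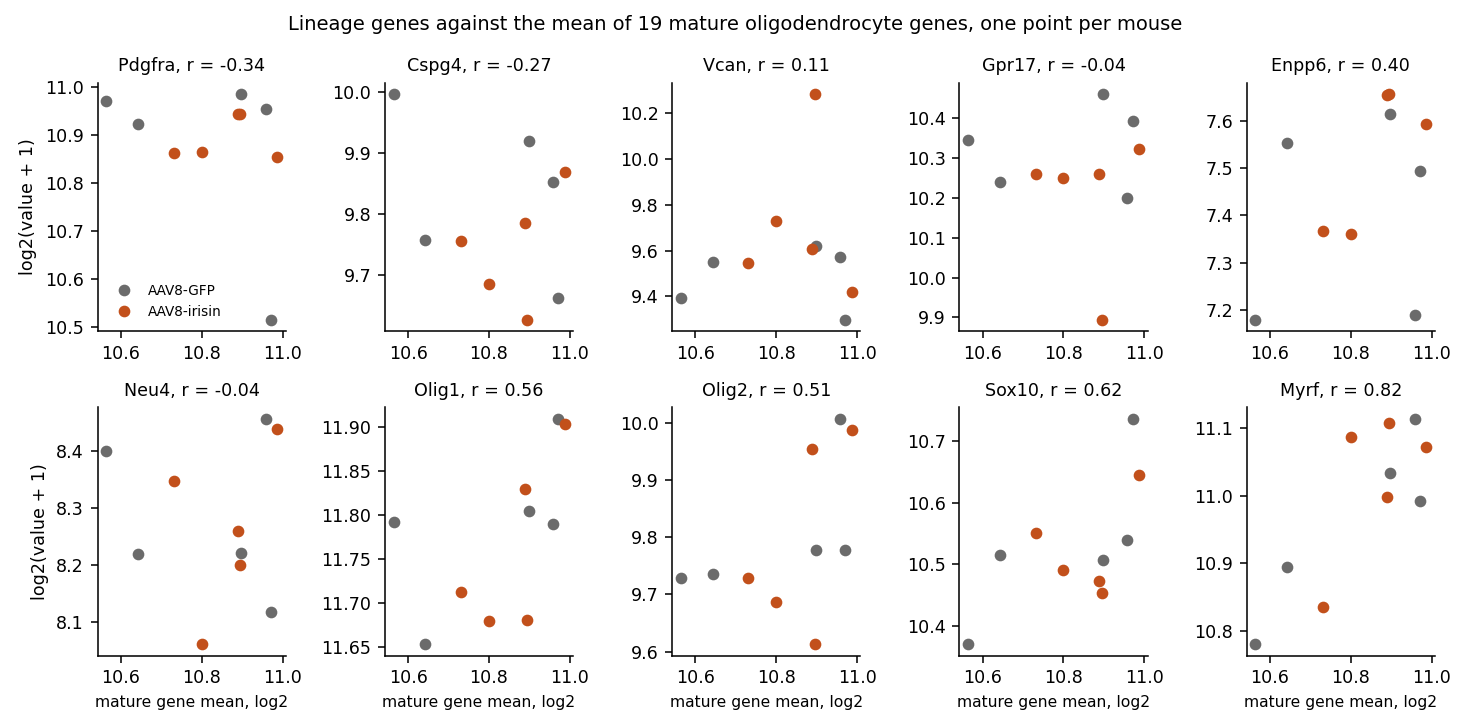
Log2(value + 1) of each lineage gene (vertical axes) against the mean log2 level of 19 mature oligodendrocyte genes (horizontal axes), 1 point per mouse, grey for AAV8-GFP and orange for AAV8-irisin, with Pearson's r over the 10 mice above each panel. Myrf is higher in mice with a higher mature level (r = 0.821), and Pdgfra and Cspg4 have negative r (−0.342 and −0.272).

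Gene by gene, the r of Myrf with the 19 mature genes had a median of 0.835 and ran from 0.264 to 0.947. Of the 500 genes most correlated with Myrf, out of 17556 genes tested, 12 were among these 19. Olig1 had 4 of the 19 in its own 500, Olig2 had 2, Enpp6 had 1 and the other 6 members had 0. For Sox10 the median r with the mature genes was 0.582. These figures are descriptions over 10 libraries that share the depth and composition of each mouse.

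Among the members themselves 45 pairs were compared, of which 25 had a positive and 20 a negative r, with a median of 0.087. No pair passed 0.05 after adjustment over the 45, by Pearson or by Spearman, and adjusted p-values started at 0.155. At an unadjusted permutation p under 0.05 there were 5 pairs by Pearson and 3 by Spearman. Cspg4 and Neu4 had the highest r, 0.68 (permutation p = 0.0329, adjusted p = 0.436), with rho = 0.709 (permutation p = 0.0272, adjusted p = 0.487), and 0.854 without the 2 mice farthest on Cspg4. The neighbouring genes Olig1 and Olig2 had r = 0.64 (permutation p = 0.0484, adjusted p = 0.436) and rho = 0.636 (permutation p = 0.0534, adjusted p = 0.487), and r = 0.809 without the 2 mice farthest on Olig1. Olig1 was also negatively correlated with Vcan at r = −0.601 (permutation p = 0.0452, adjusted p = 0.436) and rho = −0.515 (permutation p = 0.133, adjusted p = 0.546), and r was −0.48 without the 2 mice farthest on Vcan.

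Both of the most negative pairs were weaker when 2 mice were left out together. Vcan and Gpr17 had r = −0.851 (permutation p = 0.0154, adjusted p = 0.346) and rho = −0.539 (permutation p = 0.114, adjusted p = 0.546). Without AAV8-GFP mouse 1 and AAV8-irisin mouse 4, which are also the 2 farthest on Vcan, r was −0.19. Pdgfra and Sox10 had r = −0.824 (permutation p = 0.00344, adjusted p = 0.155) and rho = −0.697 (permutation p = 0.0309, adjusted p = 0.487). Their r was −0.43 without the 2 mice farthest on Pdgfra, and −0.61 without AAV8-GFP mouse 1 and AAV8-irisin mouse 4.

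For each member the 2 named genes with the highest r over the 10 mice, among all genes tested, were taken as its nearest in pattern, which is a description with no test. They were Ogt (0.977) and Eps15 (0.971) for Pdgfra, Smo (0.936) and S1pr1 (0.931) for Cspg4, and Rybp (0.914) and Ubxn7 (0.912) for Vcan. Sirt4 (0.922) and Zswim9 (0.918) were nearest to Gpr17, Trib3 (0.907) and Klhl4 (0.893) to Enpp6, and Mcu (0.968) and Ccdc112 (0.927) to Neu4. Trib3 averaged 15.2 normalised counts, close to the filter value of 10. Dnlz (0.959) and Zbed3 (0.952) were nearest to Olig1, Tmx2 (0.901) and Rgs19 (0.892) to Olig2, Kcnk13 (0.947) and Snx3 (0.938) to Sox10, and Drc7 (0.964) and Sec14l5 (0.955) to Myrf. Without AAV8-GFP mouse 1 and AAV8-irisin mouse 4, r dropped to 0.773 for Ogt and 0.71 for Eps15 with Pdgfra, to 0.706 and 0.749 for Rybp and Ubxn7 with Vcan, and to 0.671 for Zswim9 with Gpr17. It stayed at 0.863 or above for the other 15 of the 20 genes. Each was picked as the highest among all genes tested, so its size is a result of that choice.

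Other genes of the lineage were read from lists, and none of their members passed the adjusted threshold in limma. Of 12 further precursor genes 7 were higher on average in the AAV8-irisin mice and 5 were lower (median log2 difference 0.026). Pcdh15, a protocadherin, averaged 525 ± 61.2 normalised counts over AAV8-GFP mice and 575 ± 83.4 over AAV8-irisin mice, and Lhfpl3 515 ± 41.4 and 539 ± 37.4. The gene of this list with an unadjusted p under 0.05, named after its value was seen, was C1ql1 (413 ± 25.6 and 339 ± 13.6, log2 difference −0.28, limma, adjusted p = 0.942). Of 10 genes of newly formed oligodendrocytes 4 were higher and 6 lower (median −0.022). Bcas1, an early myelination marker, had 4284 ± 440 and 4468 ± 271, and Tcf7l2, a transcription factor of the WNT pathway, 138 ± 14.3 and 145 ± 20.5. Of the 19 mature genes 15 were higher and 4 lower, with a median of 0.058 and a range of −0.21 to 0.17. Without AAV8-GFP mouse 3, which had the lowest mature level, 9 were higher and 10 lower (median −0.0018). Without AAV8-GFP mouse 1 instead, 18 were higher and 1 lower (median 0.105). With AAV8-GFP mouse 1 and AAV8-irisin mouse 4 both left out, 17 were higher and 2 lower (median 0.098). At an unadjusted p under 0.05, none of the 10 newly formed or 19 mature genes was counted.

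Ligands and partners of the PDGF receptor had 2 higher and 3 lower means among 5 genes (median −0.0068). Pdgfa, which encodes the ligand of the precursor receptor, averaged 1140 ± 109 normalised counts over AAV8-GFP mice and 1089 ± 58.7 over AAV8-irisin mice, and Pdgfc 170 ± 6.68 and 169 ± 14.8. Among 20 further regulators of the lineage 12 were higher and 8 lower (median 0.011). Sox8, a close relative of Sox10, had 1136 ± 103 and 1219 ± 66.8, and Sox5, which opposes maturation in precursors, 1090 ± 71.6 and 1184 ± 135. Of 18 genes of signals that restrain or promote maturation 7 were higher and 11 lower (median −0.026), with Notch1 at 1458 ± 279 and 1357 ± 263 and its ligand gene Jag1 at 332 ± 30.8 and 339 ± 39.1. No gene of these 3 lists had an unadjusted p under 0.05.

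Matrix genes related to Vcan and Cspg4 had 6 higher and 5 lower means among 11 (median 0.026). The aggrecan gene Acan averaged 165 ± 36.9 normalised counts over AAV8-GFP mice and 166 ± 14.1 over AAV8-irisin mice, and the brevican gene Bcan 8467 ± 535 and 8067 ± 193. Relatives and partners of Neu4, Enpp6, Olig1, Gpr17 and Myrf had 5 higher and 5 lower means among the 10 of 12 that were tested (median 0.015). The sialidase genes Neu1 and Neu2 had 1684 ± 61.0 and 1673 ± 55.02, and 15.8 ± 5.50 and 16.1 ± 3.28. Olig3 was listed at 0 in all 10 mice, and Myrfl was not tested because of its low values. Of 13 proliferation genes 10 were tested, with 6 higher and 4 lower (median 0.096). Mki67, carried by dividing cells, had 89.3 ± 12.98 and 88.0 ± 13.95, and Top2a 33.2 ± 9.87 and 23.0 ± 9.06. Bub1b of that list, named after its value was seen, had an unadjusted p under 0.05 with 67.3 ± 16.4 and 128 ± 26.3 (log2 difference 0.93, limma, adjusted p = 0.942).

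Markers of cells that share genes with the lineage or surround it were also read. Of 10 mural markers 3 were higher and 7 lower (median −0.047), with Rgs5 at 3172 ± 349 normalised counts over AAV8-GFP mice and 3043 ± 94.0 over AAV8-irisin mice and Kcnj8 at 104 ± 17.7 and 102 ± 16.7. Of 10 fibroblast markers 7 were higher and 3 lower (median 0.036), against 4 and 6 without AAV8-irisin mouse 4 (median −0.047), with the collagen genes Col1a1 at 159 ± 36.7 and 152 ± 26.3 and Col1a2 at 153 ± 33.7 and 199 ± 51.2. The 3 Schwann cell markers tested had 1 higher and 2 lower (median −0.22), with Prx at 86.3 ± 16.04 and 89.1 ± 7.83.

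Of the other cell types, microglia markers were all lower, 8 of 8 (median −0.10), and 5 of 8 without AAV8-GFP mouse 3 (median −0.039). Cx3cr1, the fractalkine receptor gene, averaged 2263 ± 283 normalised counts over AAV8-GFP mice and 2118 ± 232 over AAV8-irisin mice, and P2ry12 1215 ± 169 and 1190 ± 57.0. Astrocyte markers were lower in 7 of 8 (median −0.043), and in 4 of 8 without AAV8-GFP mouse 3 (median −0.0031). The water channel gene Aqp4 had 4608 ± 509 and 4697 ± 215, and Aldh1l1 1479 ± 148 and 1427 ± 68.2. Endothelial markers were lower in 4 of 6 (median −0.050), and in 2 of 6 without AAV8-GFP mouse 3 (median 0.0095), with the tight junction gene Cldn5 at 1004 ± 209 and 845 ± 86.6 and Pecam1 at 555 ± 77.2 and 530 ± 61.7. Neuron markers were higher in 5 of 7 (median 0.0090), with Rbfox3 at 10606 ± 540 and 10360 ± 186 and Snap25 at 62127 ± 1886 and 62497 ± 746. None of these 4 cell types had a marker with an unadjusted p under 0.05.

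The 5 choroid plexus markers tested were all higher (median 0.49), with Ttr at 29.5 ± 17.98 and 369 ± 650 normalised counts and Folr1 at 11.8 ± 6.23 and 14.6 ± 4.45. Without AAV8-irisin mouse 4, at 1528, Ttr averaged 79.4 ± 63.1 in the other 4 AAV8-irisin mice, and the list's median was 0.37 with 5 of 5 higher. The 5 ependymal markers were also all higher (median 0.20), and 3 of 5 were without AAV8-GFP mouse 3 (median 0.105). Ccdc153 had 78.8 ± 34.8 and 103 ± 18.1, and Tmem212 34.4 ± 16.5 and 47.3 ± 11.9. Striatal markers were higher in 4 of 6 (median 0.044), with the dopamine receptor genes Drd1 at 137 ± 11.9 and 177 ± 41.6 and Drd2 at 82.6 ± 19.8 and 83.7 ± 6.32. Thalamic markers were higher in 3 of 6 (median 0.00028), with Tnnt1 at 33.6 ± 9.17 and 23.8 ± 4.61 and Rora at 1292 ± 122 and 1357 ± 85.3. At an unadjusted p under 0.05 these lists held Ttr, Drd1 and Tnnt1 among others, with Prlr of choroid plexus and, in the fibroblast list, Fmod named after their values were seen. Each of these 5 had an adjusted p of 0.942 in limma. The part of these cells in the values of the lineage genes was not tested. Leaving out single mice, an alternative added after the data were seen, turned the sign of the median in 14 of the 20 lists, so these small medians show no stable direction. The 6 lists whose median kept its sign were those of proliferation, microglia, astrocytes, choroid plexus, ependyma and striatum.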

How the data were processed

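Hippocampal RNA of 10 mice was captured on oligo(dT) beads, per the labels' protocols, so RNA without a poly(A) tail is poorly represented. The submitters' processing notes name bcl2fastq 2.17, DESeq2 and mm10. An aligner, counting tool, annotation and strand setting are not given in the sources used here. Per gene and library, the authors' deposited signal is named DESeq2 normalised counts by the file itself. Within a tolerance of 0.1 reads, 56.8% to 75.6% of a library's low values were whole multiples of the value of 1 read, so whole reads were not recovered and no count test was run. Precision is therefore given as the spread between mice.

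A gene was tested where 5 or more libraries held a value of 10 or more (17556 genes), on log2(value + 1) with limma 3.58.1 in R 4.3.3 (eBayes with trend, two-sided, Benjamini-Hochberg adjustment, threshold 0.05). Differences are AAV8-irisin minus AAV8-GFP, and understate changes of low genes. Each library is from its own mouse by its title, and p-values rest on the differences between mice. Exact permutation tests were two-sided over all 252 assignments, with a smallest possible p of 0.00794. Correlations used 100000 permutations, two-sided (scipy 1.17.1). The gene test was checked on simulated data. The gene positions and lengths are those of GENCODE M21 on mm10.

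The 10 members and the 20 gene lists were chosen with earlier results of these data known. Named genes are the members, the first 2 genes of each list as written and any past the threshold, and the 2 genes of highest r with each member, predicted genes left out. Some genes that this rule or a list names are not reported here. Same-numbered mice were not paired, since the correlation of their deviations was −0.089 to 0.030. No libraries were identical, with r between 0.99076 and 0.99231 over the 45 pairs. Alternatives changed the pseudocount, filter, scaling, weights and trend, added the mouse number as a block, and left out each mouse in turn.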

Additional observations from a re-analysis of the deposited data

Results flagged for a closer look

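In each group of 5 mice, the gap between the highest or lowest mouse and its nearest neighbour was compared with the group's range for the 10 members, the mean log2 levels of the mature, further precursor and newly formed lists, and the summed mature, choroid plexus, fibroblast, mural and Schwann cell markers. In 4 of 36 groups the share was above the 95% critical value of 0.71, and chance gives about 5% of groups. Pdgfra in AAV8-GFP mouse 1 was 1462 normalised counts, with a gap of 0.849 of the range. Gpr17 in AAV8-irisin mouse 4 was 950.4, with a gap of 0.81, and Olig2 in AAV8-GFP mouse 4 was 1029, with a gap of 0.835. Vcan in AAV8-irisin mouse 4, at 1243, had a gap of 0.707, just under the critical value. For Olig2 the log2 difference without AAV8-GFP mouse 4 was 0.039. The summed choroid plexus markers in AAV8-irisin mouse 4 were 2825 normalised counts, with a gap of 0.914.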

How the results depend on the processing

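No member passed the threshold between the groups under any alternative, with adjusted p-values between 0.796 and 1.0 over the limma fits. Of 200 alternatives for the members' log2 differences 182 kept the sign and 18 did not, all of the latter for Pdgfra, Neu4, Olig1, Olig2 and Sox10. The sign turned with array quality weights for Pdgfra (−0.031) and Sox10 (0.0063). With AAV8-GFP mouse 1 and AAV8-irisin mouse 4 left out, chosen after the data were seen, it turned for Pdgfra (−0.077), Olig1 (0.021), Olig2 (0.027) and Sox10 (0.057). Leaving out each mouse in turn gave ranges of −0.064 to 0.053 for Pdgfra, −0.14 to −0.054 for Cspg4, 0.088 to 0.30 for Vcan, −0.16 to −0.054 for Gpr17, 0.064 to 0.17 for Enpp6 and −0.066 to 0.029 for Neu4. They were −0.064 to 0.0011 for Olig1, −0.060 to 0.039 for Olig2, −0.052 to 0.040 for Sox10 and 0.011 to 0.10 for Myrf, with 4 to 6 members higher. Over all genes the count past the threshold was 0 throughout, except 1 without the filter on low values, where more genes were tested (Gm49383, log2 difference −3.15, adjusted p = 0.0108). With the mouse number as a block the log2 differences were identical, 0 genes passed, and 473 higher and 389 lower genes had an unadjusted p under 0.05, against 400 and 388 without it.

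The number of members correlated with the mature genes at an adjusted p under 0.05 was 0, and became 1, Myrf, on deviations from the group means (r = 0.813, permutation, adjusted p = 0.0448), with a pseudocount of 10 (0.830, 0.0461) and with quantile normalisation (0.839, 0.0423). The p on deviations made no allowance for the group means removed, so it tends to be too small. Leaving out each mouse gave 0 to 1, with 1 without AAV8-GFP mouse 1 (r = 0.869) or AAV8-irisin mouse 5 (r = 0.884) and an r of 0.696 to 0.884 for Myrf. The same ranges were 0.422 to 0.692 for Sox10, 0.443 to 0.801 for Olig1, 0.405 to 0.672 for Olig2, 0.058 to 0.695 for Enpp6, −0.098 to 0.275 for Vcan, −0.158 to 0.165 for Gpr17, −0.237 to 0.254 for Neu4, −0.395 to 0.21 for Cspg4 and −0.424 to −0.089 for Pdgfra. On deviations from the group means r was 0.053 for Gpr17. With AAV8-GFP mouse 1 and AAV8-irisin mouse 4 left out it was 0.027 for Gpr17 and 0.175 for Neu4. The causes of these changes were not tested. With 5 mice a group and no recovered reads, the spread between mice limits what can be seen, and Vcan and Enpp6 are the least precise.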
